A study of Mus musculus with 14 samples.

Results

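The 6 genes described here, Slamf1, Cd48, Cd244a, Ly9, Slamf6 and Slamf7, encode receptors of the SLAM family and were followed over 5 GFP levels of mouse bone marrow stem and progenitor cells. They were chosen by name, and their probe sets are those that name that symbol and no other. This rule found 11 probe sets of 45101 in the table, and with the brightest probe set standing for a gene it gave 6 genes of 18194. The 6 are not the whole family: Cd84, Slamf8 and Slamf9 were also measured, passed no test and are given further below. Slamf1 and Slamf6 had 3 probe sets each, Cd244a had 2, and Cd48, Ly9 and Slamf7 had 1 each.

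The cells came from C57BL/6-background mice that carry a tetracycline transactivator (tTA) under the human CD34 promoter and a histone H2B-GFP gene under a tetracycline operator. Doxycycline, which stops new H2B-GFP, was supplied for 12 weeks (drinking water, 1 mg/ml) to mice aged 6 to 8 weeks at the start, and each division then dilutes the label. LSK cells (lineage negative, Sca-1 positive, Kit positive) were sorted into 5 levels that lie 1 to 2 divisions apart, GFP0 with the least label and GFP4 with the most. The arrays numbered 2 for GFP0, 3 for GFP1, 3 for GFP2, 2 for GFP3 and 4 for GFP4. Every group carried both transgenes and had doxycycline, so no array is from untreated or non-transgenic cells. The label marks only cells in which the human CD34 promoter was active before doxycycline, so low GFP can stand for many divisions or for little label at the start. The labels call the arrays biological replicates without naming animals, and p-values measure the spread between these arrays. GFP0 replicate 1 and GFP4 replicate 1 have the narrowest spread of values of the 14 arrays, GFP4 replicate 2 has the highest mast cell and myeloid marker levels among the GFP4 arrays (though not among all 14), and results without these 3 arrays are given with the main ones. All values are log2 intensities of a probe set after the authors' normalization, and 1 unit is a doubling. Levels of different probe sets are not compared with each other, since probes differ in brightness.

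SLAM receptors are immunoglobulin-like proteins of the surface of blood cells. Most of them bind the same receptor on a neighbouring cell, while CD48 (Cd48), held by a lipid anchor, is the ligand of CD244 (Cd244a) and of CD2. Most of the receptors other than CD48 have cytoplasmic tails that recruit small SH2 adaptors such as SAP (Sh2d1a), which couple them to Src-family kinases. In mouse bone marrow the family is widely used to sort stem cells: long-term stem cells are known as positive for CD150 (Slamf1) and negative for CD48 and CD244, and multipotent and restricted progenitors gain CD244 and CD48 in steps. Ly9 (CD229), Slamf6 and Slamf7 are best known from lymphocytes, natural killer cells and plasma cells.

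The 250 bases before the start of Cd48, Cd244a and Slamf1 are given because the results turn on these genes and because all of them lie in a single gene cluster on chromosome 1. They are from RefSeq, build GRCm38.p6, all on the plus strand, 5′ to 3′, at chr1:171681742-171681991 for Cd48, chr1:171558943-171559192 for Cd244a and chr1:171766882-171767131 for Slamf1. Capitals mark a match to a searched motif.
Cd48: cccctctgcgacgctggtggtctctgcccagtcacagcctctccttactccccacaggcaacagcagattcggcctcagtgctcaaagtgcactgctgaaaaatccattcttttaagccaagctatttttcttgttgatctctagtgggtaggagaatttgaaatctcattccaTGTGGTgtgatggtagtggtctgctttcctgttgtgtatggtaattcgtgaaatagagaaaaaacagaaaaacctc
Cd244a: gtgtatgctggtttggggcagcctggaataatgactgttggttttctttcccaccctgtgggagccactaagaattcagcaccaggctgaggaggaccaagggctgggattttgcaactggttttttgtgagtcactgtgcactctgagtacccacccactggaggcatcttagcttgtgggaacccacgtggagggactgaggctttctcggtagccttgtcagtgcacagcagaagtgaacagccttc
Slamf1: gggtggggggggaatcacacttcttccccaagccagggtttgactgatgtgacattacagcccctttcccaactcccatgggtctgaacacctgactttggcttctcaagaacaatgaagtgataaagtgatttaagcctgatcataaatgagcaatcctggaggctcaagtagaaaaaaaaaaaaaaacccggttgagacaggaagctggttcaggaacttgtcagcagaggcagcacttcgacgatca
A RUNX word and 4 others were searched on both strands of the 5 windows found, those of Slamf6 and Slamf7 included; Ly9 had no entry. The RUNX word TGTGGT occurred once in the Cd48 window, 76 bases before the start, and 14% of 32851 mouse windows of this length hold it. The remaining words occurred in none of the 5 windows. Of all mouse windows, 23.3% hold the PU.1 word GAGGAA. The ETS word CCGGAA is in 12% of them. The GATA word, AGATAA, is in 9.99%. The E-box CAGCTG is in 13%. The Cd48, Cd244a and Slamf7 windows lie inside the span that RefSeq gives the gene, so an earlier start exists for these genes.

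The question put to the family was how its transcripts ran with retained label. Cd48 and Cd244a fell steeply towards GFP4, Slamf7 fell by a smaller amount, and Ly9 and Slamf6 passed no test. Slamf1 passed neither for the slope (limma adjusted p = 0.0815) nor for GFP4 against GFP0 (0.453). Its brightest probe set was higher in GFP4 than in GFP1, a comparison added after the values were seen, and its other probe sets did not pass there. The measured signal of Cd48 was 13.6-fold lower, and that of the brighter Cd244a probe set 8.64-fold lower, in GFP4 cells than in GFP0 cells. The dimmer Cd244a probe set did not pass. The GFP4 means of both (6.68 and 6.09) lay below the table's median of 7.03, and without detection calls it is not known whether these probe sets were above background there. Of the 6 genes, 3 had a negative slope per GFP level that passed (limma, Benjamini-Hochberg adjusted p under 0.05 over 18194 genes) and 0 a positive one, where 1.07% of all genes passed as lower and 2.28% as higher. For GFP4 against GFP0 the same 3 genes passed as lower and 0 as higher, where 0.429% of all genes passed as lower and 1.25% as higher. Slope and GFP4 against GFP0 use the same GFP0 and GFP4 arrays, so they are not independent. The median slope of the 6 genes was -0.20 per level, against -0.01 over all genes, and their median difference between GFP4 and GFP0 was -0.83, against -0.04. The 6 genes were chosen with earlier results of these data known, so these counts and medians only describe them. Without GFP0 replicate 1 and GFP4 replicates 1 and 2, the slopes of Cd48 (-1.09, limma adjusted p = 0.00876), Cd244a (-0.87, 0.0302) and Slamf7 (-0.30, 0.0306) kept their calls. GFP4 minus GFP0 then kept its call for Cd48 (-3.87, limma adjusted p = 0.0385) but not for Cd244a (-3.59, 0.0739) or Slamf7 (-1.16, 0.092). In bulk samples, fewer cells with a transcript and less of it per cell cannot be told apart.

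**Figure D1:**
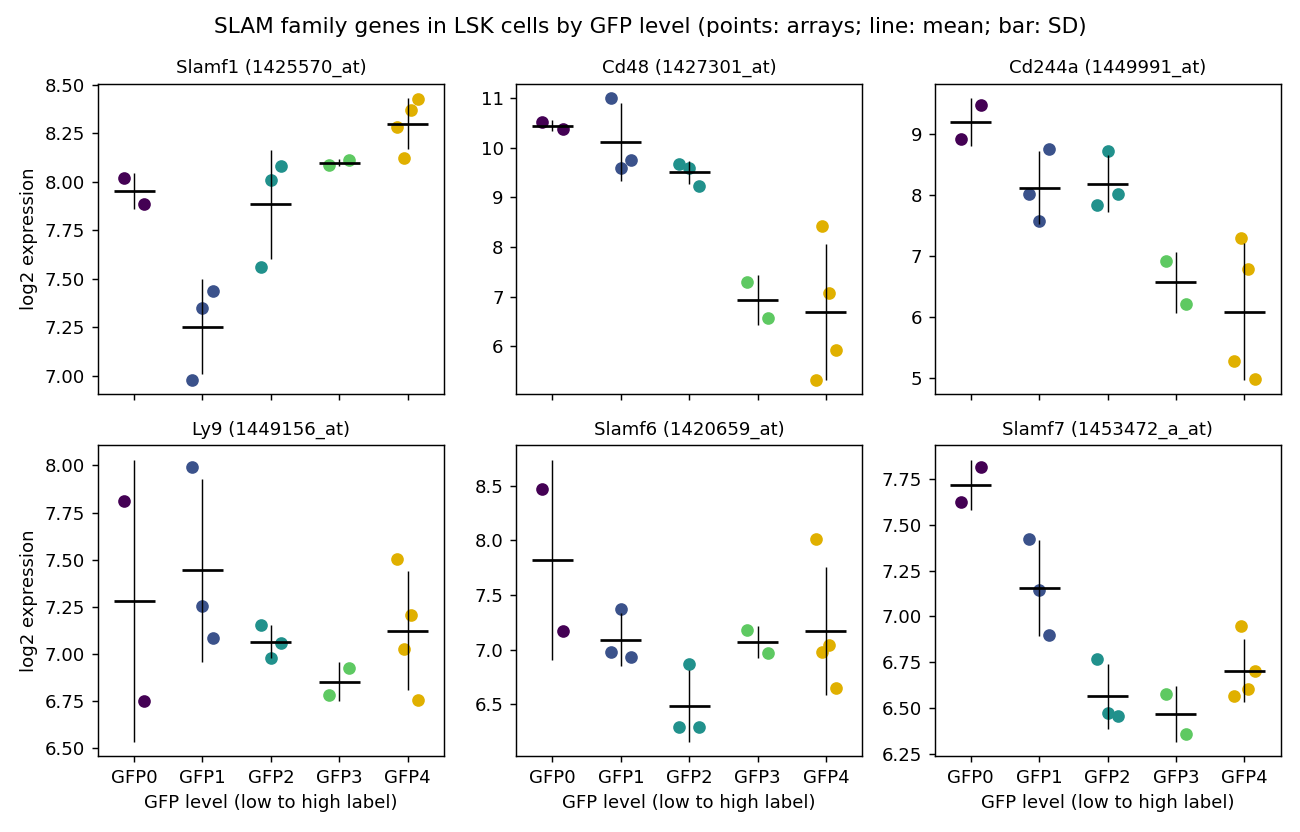
Each panel plots the log2 expression of a SLAM family gene (y axis, with its own range) against the 5 GFP levels (x axis); points are arrays, lines group means and bars SDs. Cd48 and Cd244a have their low values at GFP3 and GFP4, and Slamf1 has its low values at GFP1. In Ly9 the GFP3 arrays lie below those of GFP1 and GFP2, and the other pairs of levels overlap. In Slamf6 the GFP2 arrays lie below those of GFP0, GFP1 and GFP3, and the other pairs overlap.

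Cd48, the ligand of CD244, had 10.52 and 10.37 in GFP0, and 11.01, 9.59 and 9.75 in GFP1. In GFP2 it had 9.68, 9.60 and 9.23, in GFP3 7.29 and 6.57, and in GFP4 5.31, 8.42, 7.07 and 5.93. No array of GFP3 or GFP4 reached the lowest array of GFP0, GFP1 or GFP2. The group means ran 10.44 ± 0.11, 10.12 ± 0.78, 9.50 ± 0.24, 6.93 ± 0.50 and 6.68 ± 1.37 (SD, GFP0 to GFP4, n = 2, 3, 3, 2 and 4 arrays), and the GFP4 arrays were the most scattered. The slope was -1.07 per level (SE 0.15, limma adjusted p = 0.00286), and GFP4 minus GFP0 was -3.76 (SE 0.66, limma adjusted p = 0.015). GFP4 minus GFP1 was -3.43 (SE 0.58, limma adjusted p = 0.0157), a 10.8-fold lower signal. Most of the change in the means lay between GFP2 and GFP3, where GFP3 minus GFP2 was -2.57 (SE 0.70). This step had the 7th smallest p of 18194 genes (unadjusted p = 0.00269 in limma) and did not pass the adjustment. No step between neighbouring levels passed for any gene in limma; the genes at an unadjusted p under 0.05 numbered 1969, 493, 247 and 716 from the first step to the last. The test of departure from a straight line passed for no gene either (limma, with 1275 genes at an unadjusted p under 0.05), so the shape of the Cd48 curve was not resolved. The difference between GFP4 and GFP0 lost its call without either GFP0 array at about the same size (-3.69, adjusted p = 0.122, without replicate 1 and -3.84, 0.0678, without replicate 2), and that between GFP4 and GFP1 lost it without GFP1 replicate 1 (-2.99, adjusted p = 0.0918).

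Cd244a, the receptor of CD48, had 8.93 and 9.48 in GFP0, and 8.01, 7.58 and 8.77 in GFP1. In GFP2 it had 7.84, 8.73 and 8.02, in GFP3 6.92 and 6.22, and in GFP4 5.29, 7.30, 6.79 and 4.99. As for Cd48, every array of GFP3 and GFP4 lay below every array of the 3 lower levels, and GFP1 and GFP2 overlapped. The means were 9.20 ± 0.40, 8.12 ± 0.60, 8.19 ± 0.47, 6.57 ± 0.50 and 6.09 ± 1.13 (SD, GFP0 to GFP4). The slope was -0.78 per level (SE 0.13, limma adjusted p = 0.00702), and GFP4 minus GFP0 was -3.11 (SE 0.57, limma adjusted p = 0.018). GFP4 minus GFP1 was -2.03 (SE 0.51) and did not pass (limma adjusted p = 0.0802), though it did without GFP4 replicate 2 (-2.43, adjusted p = 0.0186). Without GFP0 replicate 2 the slope was -0.72 with an adjusted p of 0.0502, and GFP4 minus GFP0 lost its call without GFP0 replicate 1 (-3.39, adjusted p = 0.103) or replicate 2 (-2.83, 0.0947). The other Cd244a probe set was dimmer, with a mean of 6.38 over the arrays, and its slope of -0.18 (SE 0.08) did not pass over all probe sets (limma adjusted p = 0.292, unadjusted p = 0.0334). With the mean of both probe sets as the gene the calls held at smaller sizes, with a slope of -0.48 (limma adjusted p = 0.00841) and a GFP4 minus GFP0 of -1.87 (0.0259).

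**Figure D2:**
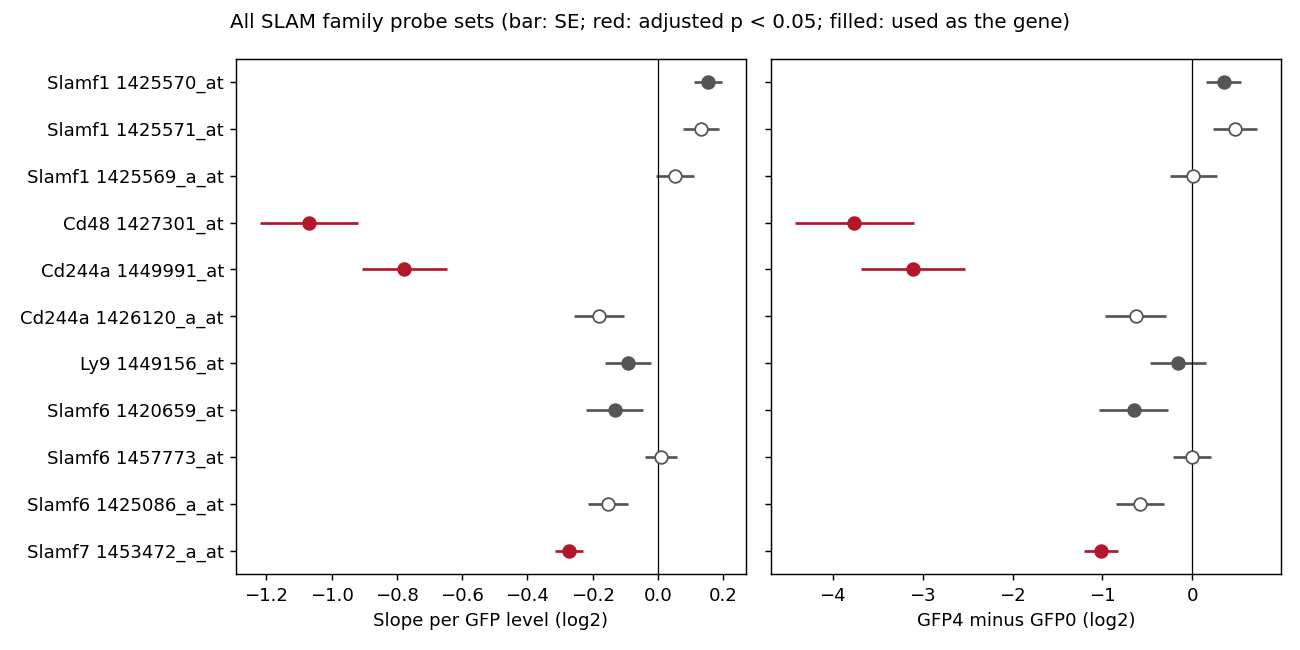
All 11 probe sets of the 6 genes (rows) with their slope per GFP level (left, log2) and their GFP4 minus GFP0 difference (right, log2); bars are standard errors, filled points stand for the gene, and red marks an adjusted p under 0.05 over all probe sets. The 3 red probe sets are the single one of Cd48, 1 of 2 of Cd244a and the single one of Slamf7.

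Cd48 and Cd244a also ran together array by array. Over the 14 arrays Pearson's r was 0.92 and Spearman's rho 0.89, as a description, since arrays of a level share their level. After the group means were taken away, r was 0.72 and rho 0.69, and r was 0.47 without the 2 arrays farthest from the middle in Cd48. Both genes had their highest GFP4 value in GFP4 replicate 2 and their lowest pair of GFP4 values in replicates 1 and 4.

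**Figure D3:**
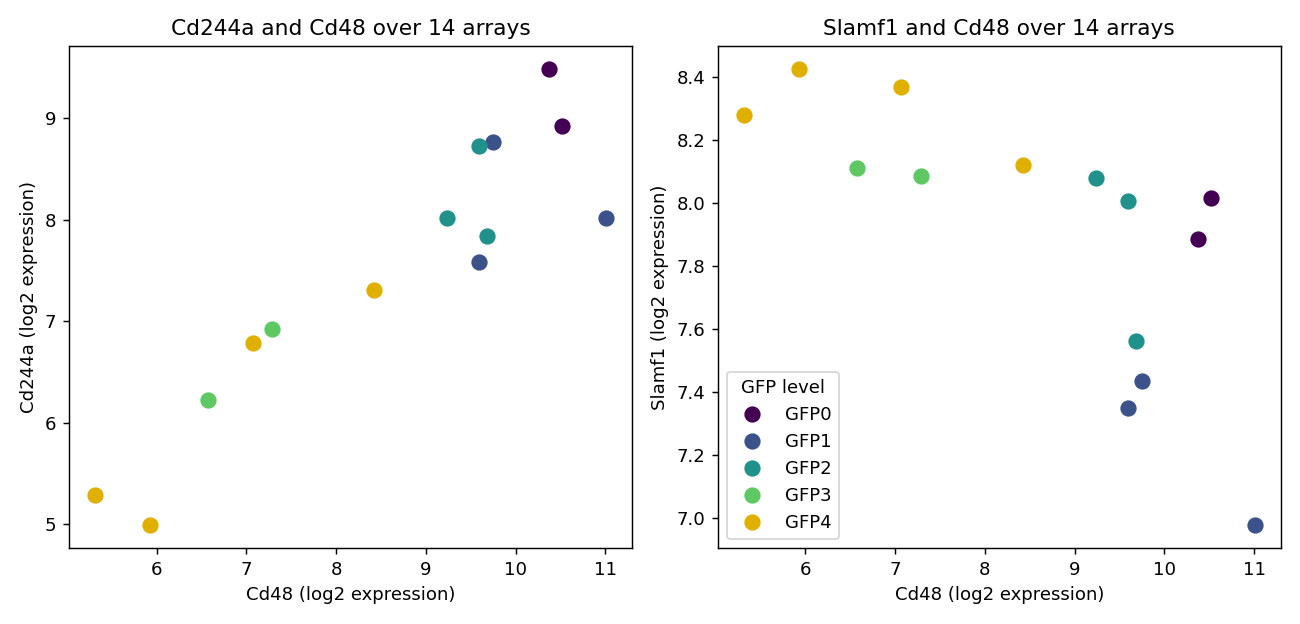
Log2 expression of Cd244a (left) and Slamf1 (right) against Cd48 over 14 arrays, coloured by GFP level. Arrays of GFP3 and GFP4 have low Cd48 with low Cd244a, and the 3 GFP1 arrays have the lowest Slamf1 values beside high Cd48.

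Slamf1 encodes CD150, the SLAM receptor that marks stem cells. Its brightest probe set had 8.02 and 7.88 in GFP0, and 6.98, 7.35 and 7.44 in GFP1. In GFP2 it had 7.56, 8.01 and 8.08, in GFP3 8.08 and 8.11, and in GFP4 8.28, 8.12, 8.37 and 8.43. In this probe set every GFP4 array was above every other array, though narrowly (8.12 against 8.11 in GFP3). Every GFP1 array was below every other, so GFP1 and not GFP0 held its lowest values. The means were 7.95 ± 0.09, 7.25 ± 0.24, 7.88 ± 0.28, 8.10 ± 0.02 and 8.30 ± 0.13 (SD, GFP0 to GFP4). GFP4 minus GFP1 was 1.05 (SE 0.17, limma adjusted p = 0.0142), a 2.07-fold higher signal in GFP4. GFP4 minus GFP0 was 0.35 (SE 0.20, limma adjusted p = 0.453), and the slope over 5 levels was 0.15 (SE 0.04, limma adjusted p = 0.0815), neither of which passed. Over GFP1 to GFP4 alone the slope of this probe set was 0.34 and passed (limma adjusted p = 0.0145). Leaving out GFP0 starts that slope at the level with the lowest values, so it adds no separate support for a rise.

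For GFP4 against GFP1, a comparison added after the values were seen, 1 of the 6 genes passed as higher (Slamf1) and 1 as lower (Cd48), where 0.989% of all genes passed in either direction. The Slamf1 call was lost without GFP1 replicate 1, the lowest array (0.91, adjusted p = 0.087), and when the gene was taken as the mean of its 3 probe sets (0.54, adjusted p = 0.161). The second brightest Slamf1 probe set had means of 8.17 in GFP4 and 7.57 in GFP1, a difference of 0.60 (SE 0.22) that did not pass over all probe sets (limma adjusted p = 0.296), and the dimmest differed by -0.04 (SE 0.23, limma adjusted p = 0.968). In the second brightest, GFP1 replicate 2 (8.07) was above every GFP0, GFP2 and GFP3 array. In the dimmest, the GFP1 mean (6.38) was above those of GFP0 (6.33) and GFP2 (6.25).

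Slamf7, a receptor of natural killer and plasma cells, had 7.62 and 7.82 in GFP0, and 7.42, 7.15 and 6.90 in GFP1. In GFP2 it had 6.77, 6.47 and 6.46, in GFP3 6.58 and 6.36, and in GFP4 6.56, 6.95, 6.61 and 6.70. Both GFP0 arrays were above all others, and GFP2, GFP3 and GFP4 overlapped. The slope was -0.27 per level (SE 0.04, limma adjusted p = 0.00594), and GFP4 minus GFP0 was -1.01 (SE 0.19, limma adjusted p = 0.0217), a 2.02-fold lower signal. Over GFP1 to GFP4 alone the slope was -0.15 and did not pass (limma adjusted p = 0.225), and GFP4 minus GFP1 was -0.45 (SE 0.17, limma adjusted p = 0.266). GFP4 minus GFP0 lost its call without GFP0 replicate 1 (-1.11, adjusted p = 0.0965), GFP0 replicate 2 (-0.92, 0.0933), GFP4 replicate 3 (-0.98, 0.0517) or GFP4 replicate 4 (-1.01, 0.0565). Its mean over arrays, 6.88, was below the table's median of 7.03, and the data hold no detection calls.

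Ly9, a receptor known from lymphocytes, had 7.81 and 6.75 in GFP0, 7.99, 7.26 and 7.08 in GFP1, and 7.16, 6.98 and 7.06 in GFP2. In GFP3 it had 6.78 and 6.93, and in GFP4 7.51, 7.02, 7.20 and 6.75. The GFP3 arrays lay below those of GFP1 and GFP2, and the other pairs of levels overlapped. Neither the slope (-0.09, SE 0.07, limma adjusted p = 0.576) nor GFP4 minus GFP0 (-0.16, SE 0.31, limma adjusted p = 0.855) passed. Slamf6, which is known from T, B and natural killer cells, had 8.47 and 7.17 in GFP0, 6.98, 7.37 and 6.93 in GFP1, and 6.29, 6.87 and 6.29 in GFP2. In GFP3 it had 7.17 and 6.97, and in GFP4 8.01, 6.97, 7.04 and 6.65. Its slope (-0.13, SE 0.09, limma adjusted p = 0.494) and GFP4 minus GFP0 (-0.65, SE 0.39, limma adjusted p = 0.479) did not pass, and neither did those of its other 2 probe sets. The Slamf6 values turned on the GFP0 arrays: GFP4 minus GFP0 was -0.0030 without GFP0 replicate 1 and -1.30 without replicate 2, and the slope was -0.0025 and -0.26, all uncalled. The highest array of Slamf6 in GFP0 and in GFP4 was replicate 1, as it was for Ly9. These were the arrays with the narrowest spread of values of all 14 (interquartile ranges 2.09 in GFP0 replicate 1 and 2.21 in GFP4 replicate 1). The highest Ly9 value of all arrays, 7.99, was in GFP1 replicate 1, with an interquartile range of 2.54. With that range as a covariate the slopes were -0.06 for Slamf6 and -0.06 for Ly9, uncalled as without it. Whether the spread of an array bears on these values was not tested.

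Across all 5 levels at once, a moderated F test passed for 2 of the 6 genes, Cd48 (limma adjusted p = 0.0251) and Slamf7 (0.0449), where 0.698% of all genes passed. Cd244a (0.0679), Slamf1 (0.0793), Slamf6 (0.433) and Ly9 (0.745) did not.

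The family genes lie in a cluster in the RefSeq order Cd244a, Ly9, Slamf7, Cd48, Slamf1, Cd84 and Slamf6, with unmeasured genes between some of them. The window from 5 genes before Cd244a to 5 after Slamf6 held 25 genes, of which 19 were not among the 6. Of these 19, 7 were measured and 0 passed for slope in limma. At an unadjusted p under 0.05 for slope in limma there were 0 as well, against 3040 of all 18194 genes. Cd84, a self-binding SLAM receptor that sits between Slamf1 and Slamf6, had a slope of 0.08. The slope was -1.07 for Cd48 and 0.15 for Slamf1, the next measured gene after it, and the Slamf1 slope did not pass (limma adjusted p = 0.0815).

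**Figure D4:**
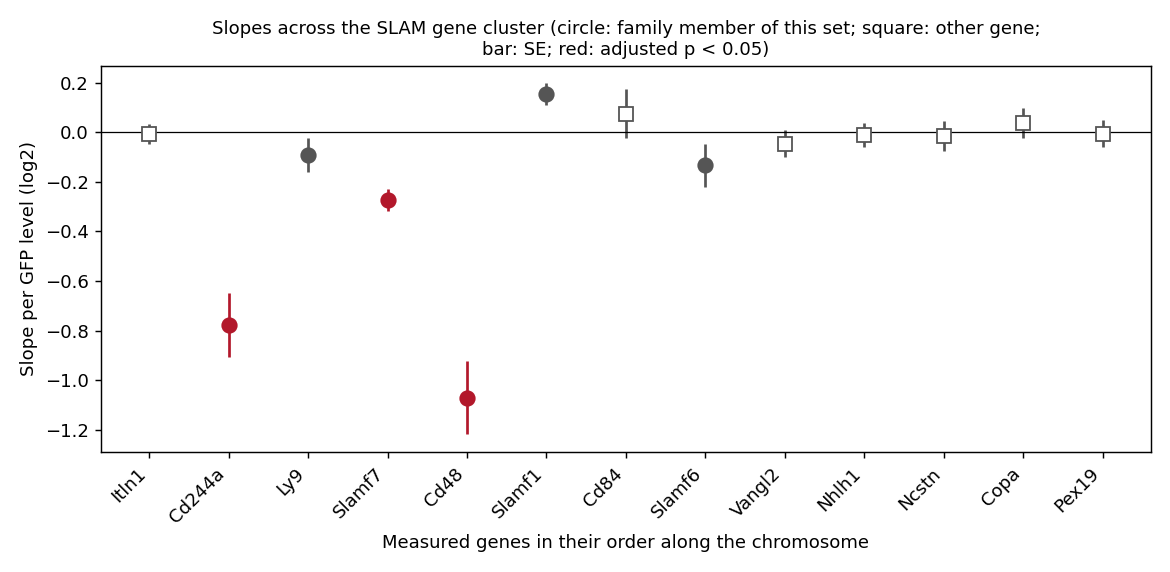
Slope per GFP level (y axis, log2, bar SE) of the measured genes of the SLAM cluster and its flanks in chromosomal order (x axis, no distances); circles are the 6 genes, squares other genes, and red marks an adjusted p under 0.05 over all genes. Cd244a, Slamf7 and Cd48 lie below 0, and the 7 other genes lie near 0.

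Of the rest of the pathway, no gene passed for slope or for GFP4 against GFP0 in limma. The 4 related receptors, 0 of them at an unadjusted p under 0.05, had slopes of 0.08 (Cd84), 0.04 (Slamf8), -0.14 (Slamf9) and -0.07 (Cd2, the other receptor of CD48). The adaptor Sh2d1a had a mean of 3.61, below the table's median on every array, and a slope of 0.03; Sh2d1b1 and Sh2d1b2 had no probe set of their own. Of 13 measured signalling partners (kinases, phosphatases and other effectors) 0 passed in limma, and their median slope was 0.06. For the slope 4 of them had an unadjusted p under 0.05 in limma, as did 3040 of all 18194 genes. The steepest partners were Prkcq, a protein kinase C (0.21, limma adjusted p = 0.0982), and Dok1, a docking protein (0.20, limma adjusted p = 0.0596).

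Of 11 measured surface genes that are used beside SLAM receptors to sort these cells, 2 passed as higher for the slope in limma. The same 2 passed for GFP4 against GFP0. Of all genes, 2.28% passed as higher for the slope and 1.25% for GFP4 against GFP0. Procr, the protein C receptor (EPCR), averaged 11.24 ± 0.29 in GFP4 and 8.42 ± 0.01 in GFP0 (SD, n = 4 and 2), with a slope of 0.78 (SE 0.11, limma adjusted p = 0.00314). Esam, an endothelial adhesion molecule also found on stem cells, averaged 9.85 ± 0.19 in GFP4 and 8.49 ± 0.26 in GFP0, with a slope of 0.39 (SE 0.07, limma adjusted p = 0.0115). Kit, Cd34, Flt3, Itga2b, Thy1, Cd27, Eng, Tek and Cd9 did not pass, and Itga2b, the integrin CD41, averaged 8.81 ± 0.49 in GFP4 and 9.95 ± 0.86 in GFP0. The Sca-1 gene Ly6a had no probe set of its own, and the Kit probe set averaged 9.15 ± 0.34 in GFP4 and 8.51 ± 0.42 in GFP0.

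The genes whose values ran most like a member were taken by Pearson's r over the 14 arrays among 11038 genes of at least median brightness, as a description. Cd48 ran most like BC035044 (0.96), Pclaf, a PCNA-binding replication factor (0.95), Cenpw, a centromere protein (0.95), Milr1, a mast cell immunoglobulin-like receptor (0.94), and Nkg7, a cytotoxic granule protein (0.94). It ran most against Mapk12 (-0.96), Cish (-0.95) and Fgf11 (-0.95). Cd244a ran most like Lrr1 (0.93), Cks2, a cyclin-dependent kinase subunit (0.92), Gmnn, the replication licensing inhibitor geminin (0.92), Cd48 itself (0.92) and Foxn2 (0.92), and most against Pde1b (-0.94), Ccdc136 (-0.93) and Cracr2b (-0.92). Slamf1 ran most like Grb10 (0.87), Nfkbia (0.86), Rgs1 (0.85), Csgalnact1 (0.85) and Zmynd11 (0.84), and most against Fanca (-0.93), Tnfaip8l2 (-0.91) and Msrb1 (-0.89).

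Some markers of other cells passed for the slope as well, and these counts stand beside 1.07% of all genes that passed as lower and 2.28% as higher. Of 9 measured mast cell and basophil genes 3 fell (Cpa3, Ms4a2 and Fcer1a), with a median slope of -0.63 over the list, and the mean of the list was 8.27 to 8.49 in GFP0 arrays, 6.78 to 8.57 in GFP1, 6.28 to 7.87 in GFP2, 6.27 to 6.39 in GFP3 and 6.31 to 7.66 in GFP4. Of 14 neutrophil, monocyte and dendritic cell genes 1 fell (Ltf), and the mean of the list was 7.59 to 8.92 in GFP4 and 9.09 to 10.46 in GFP0. Of 11 B and plasma cell genes 2 fell (Ighm and Vpreb1), with list means of 7.23 to 7.90 in GFP4 and 8.13 to 9.16 in GFP0. Of 12 T and natural killer genes 1 fell (Nkg7), with list means of 6.95 to 7.35 in GFP4 and 7.54 to 8.46 in GFP0. Of 9 megakaryocyte and erythroid genes 2 fell (the erythroid genes Klf1 and Car1), with list means of 7.65 to 8.36 in GFP4 and 7.75 to 9.33 in GFP0. The megakaryocyte genes of this list ran both ways and none passed. Vwf (0.60), Ppbp (0.28) and Gp9 (0.06) had positive slopes, and Pf4 (-0.20) and Gp1bb (-0.38) negative ones. From 1 to 2 genes of each of these lists were below the table's median on every array. Of 9 stem cell markers 4 rose (Procr, Hlf, Mecom and Meis1). GFP4 replicate 2, with the highest Cd48 and Cd244a of GFP4, also had the highest GFP4 mean of the mast cell list (7.66, against 6.31 to 6.59 in the other GFP4 arrays) and of the neutrophil, monocyte and dendritic cell list (8.92, against 7.59 to 8.21). GFP2 replicate 3 had a mast cell mean of 6.28 and a neutrophil, monocyte and dendritic cell mean of 7.42, as low as the GFP3 arrays, and a Cd48 value of 9.23, above all GFP3 and GFP4 arrays. For the T, natural killer, B and plasma cell lists, which hold cells known for Slamf6, Slamf7 and Ly9, the highest mean of all arrays was in GFP0 replicate 1 (8.46 and 9.16). The part of these cells in the changes of the SLAM genes was not tested.

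**Figure D5:**
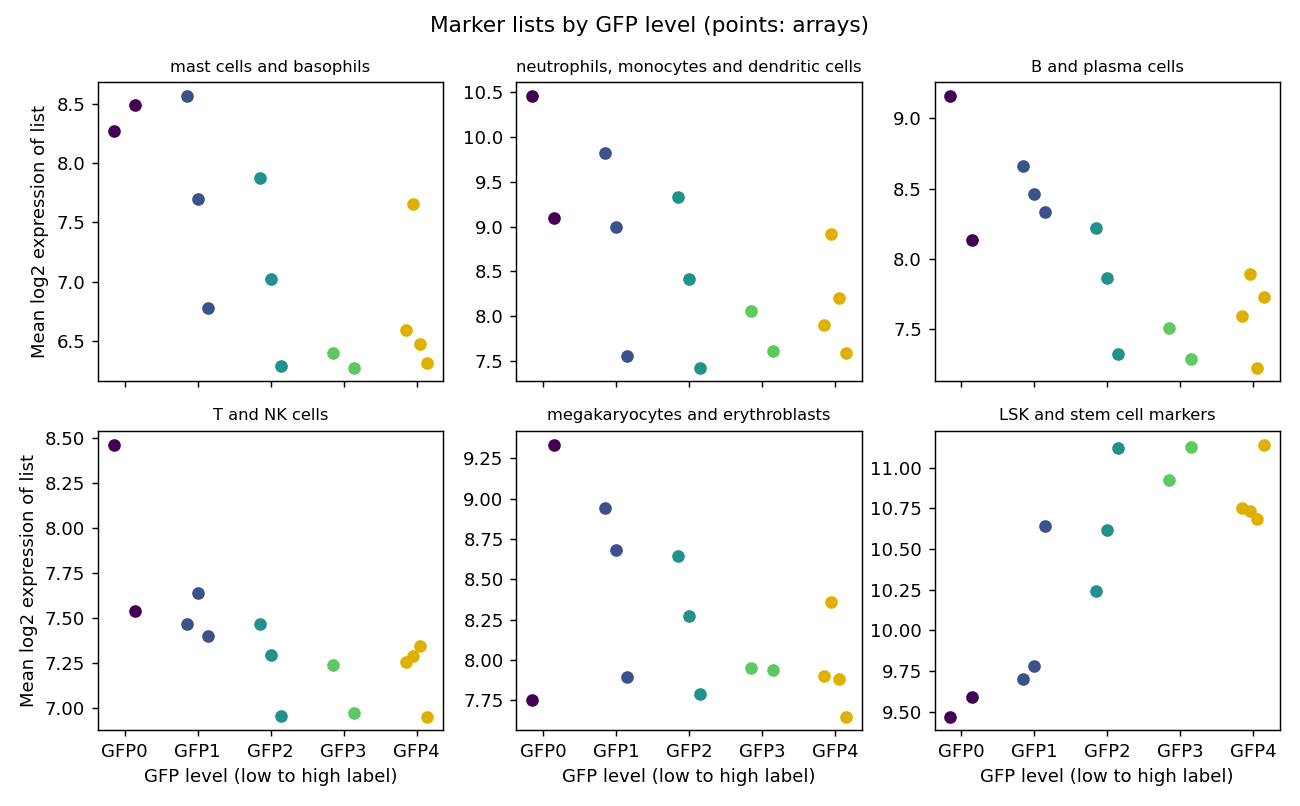
Mean log2 expression over the measured genes of 6 marker lists (y axis, own range in each panel) by GFP level (x axis); points are arrays. The mast cell list is at 6.27 to 6.39 in GFP3 and reaches 8.57 in GFP1, and the stem cell list is at 10.68 to 11.14 in GFP4 and 9.47 to 9.59 in GFP0.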

How the data were processed

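LSK cells from 14 sorted samples were profiled on Affymetrix arrays after RNA amplification and biotin labelling, per the labels' protocols. The submitters' processing notes name GCOS, RMA and affy without versions. What the authors deposited is log2 expression per probe set (2.69 to 15.1, median 7.03), used unchanged; RMA makes distributions alike, yet interquartile ranges per array still ran from 2.09 to 2.73. The number of arrays limits the precision. The genome build of the arrays is not given in the sources used here, and sequences are from RefSeq (GRCm38.p6).

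Of 45101 probe sets, 34958 named 1 symbol by the platform annotation, 932 several and 9211 none. A gene was its brightest 1-symbol probe set by mean (18194 genes). In limma 3.58.1 (R 4.3.3) group means were fitted to 14 arrays with empirical Bayes (9 residual and 3.995 prior degrees of freedom), with two-sided tests and p-values adjusted by Benjamini-Hochberg across the 18194 genes, at 0.05. The slope is the straight-line contrast of the 5 group means, whatever their number of arrays; the end levels weigh most and GFP2, the middle level, adds only to the estimate of spread. Fits were tested on simulated data.

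Genes were named by rule: the 6 genes with every probe set, all receptors and adaptors of the pathway, other list members that passed or were bright, neighbours within 5 genes that passed, and for Cd48, Slamf1 and Cd244a the 5 most alike and 3 most opposite genes. Flanking genes that did not pass are drawn without being named in the text. The members and lists were chosen with earlier results of these data known. Alternatives covered scaling, a filter on dim genes, probe set choice, variance model, array weights, a replicate block, covariates and left-out arrays.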

Additional observations from a re-analysis of the deposited data

How the results depend on the processing

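The Cd48 slope kept its call in all 27 alternatives, from -1.29 to -0.98; those without a GFP2 array change only its error. The Cd244a slope lost it with array quality weights (-0.79) and with 3′ to 5′ probe differences as covariates (-0.73), and the Slamf7 slope lost it under the same settings (-0.27 and -0.25) and over GFP1 to GFP4 (-0.15), where Slamf1 gained a call (0.34) and Slamf6 turned to 0.082, uncalled. Whether replicate numbers pair the samples is not known. Deviations of same-numbered arrays correlated at -0.258 to 0.576, above 0.1 in 9 of 23 pairs. Those of differently numbered arrays correlated at -0.632 to 0.476, above 0.1 in 20 of 54 pairs. In groups of 2 arrays the deviations mirror each other, so these values cannot decide on pairing. With the number as a replicate block, GFP4 minus GFP0 lost its call for Cd48 (-3.43), Cd244a (-2.88) and Slamf7 (-0.94), with Ly9 at 0.031, and GFP4 minus GFP1 lost it for Cd48 (-3.18) and Slamf1 (1.00); the genes called numbered 337 for slope, 67 for GFP4 minus GFP0 and 74 for GFP4 minus GFP1, against 609, 306 and 180 without it. GFP4 minus GFP0 also lost its call with quality weights (Cd48 -3.71, Cd244a -3.04, Slamf7 -1.05), with only the 2 groups fitted (-3.76, -3.11 and -1.01), with the 3′ to 5′ covariates (Cd244a -2.97, Slamf7 -0.94) and without 3 arrays, GFP0 replicate 1 and GFP4 replicates 1 and 2 (Cd244a -3.59, Slamf7 -1.16, Ly9 turned to 0.23). GFP4 minus GFP1 lost it with 2 groups fitted (Cd48 -3.43, Slamf1 1.05), with the 3′ to 5′ covariates (Cd48 -2.82, Slamf1 0.92, Ly9 at 0.0025) and with the mean over probe sets (Slamf1 0.54); Slamf6, uncalled, was -0.029 with weights, -0.17 with the interquartile range as covariate and -0.25 without the 3 arrays. The quality weights were 0.36 for both GFP0 arrays and 0.30, 0.48, 2.12 and 1.37 for GFP4 replicates 1 to 4. Those of the other arrays ran from 0.40 in GFP1 replicate 2 to 4.46 in GFP2 replicate 2. The causes of these changes were not tested, though fits of 2 groups have fewer arrays.

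Called genes numbered 90 with weights, 282 over GFP1 to GFP4, 165 with the 3′ to 5′ covariates and 269 without the 3 arrays for slope. For GFP4 minus GFP0 they numbered 2, 58 with 2 groups, 142 with covariates and 112 without the 3 arrays. For GFP4 minus GFP1 they numbered 293, 42 with 2 groups and 28 with covariates. Leaving out each array in turn gave 182 to 768 genes for slope, 51 to 363 for GFP4 minus GFP0 and 39 to 312 for GFP4 minus GFP1. Slopes then ran from -0.86 to -0.70 for Cd244a, -0.20 to 0.015 for Ly9 and -0.29 to -0.25 for Slamf7. GFP4 minus GFP0 ran from -4.34 to -3.30 for Cd48, -3.51 to -2.74 for Cd244a, -1.11 to -0.92 for Slamf7 and -0.69 to 0.37 for Ly9. GFP4 minus GFP1 ran from -4.01 to -2.97 for Cd48, -2.43 to -1.66 for Cd244a, 0.91 to 1.14 for Slamf1 and -0.20 to 0.25 for Slamf6. The slope of Slamf6 ran from -0.26 to -0.0025 and its GFP4 minus GFP0 from -1.30 to -0.0030. The data hold no detection calls, which limits the folds of genes near or below the table's median, in most groups for Slamf7, Ly9 and Slamf6 and in GFP3 and GFP4 for Cd48 and Cd244a.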
